A study of Homo sapiens with 8 samples.

Results

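Described here are 10 genes of MDA-MB-231 cells that stood strongly higher with each of 3 siRNAs against ESRRA than with the control siRNA: TMEM64, PLSCR4, TMEM65, TMEM87B, NGEF, CACNA2D1, SLC22A18, TRIB2, UHMK1 and TK2. They were picked by symbol from a table of 23368 genes. The rule asked for levels strongly above control in all 6 libraries of the ESRRA siRNAs. The gap was narrowest for TRIB2, whose lowest ESRRA siRNA library stood at 1.39 times its highest control library. All 10 were among the 13395 genes that passed the filter on low counts. ESRRA encodes ERRα (estrogen-related receptor α), an orphan nuclear receptor known for its role in mitochondrial energy genes. The cells are a human breast cancer line of the triple-negative class. By their labels the 4 groups differ in the siRNA they were transfected with: siE1, siE2 or siE3, each aimed at ESRRA, or the control siRNA siC. Each group has 2 RNA-seq libraries, and libraries held 21835995 to 25880548 counts. The labels do not say that the 2 libraries of a group came from separate cultures, so p-values reflect only how far these particular libraries spread, and that spread may be technical.

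A small interfering RNA (siRNA) guides the RNA interference machinery to a matching mRNA, which is then cut. Its seed, the first few bases of the guide strand, can also pair with short words in the 3' UTR of other mRNAs and lower them, much as a microRNA does, and a control siRNA has a seed too. The series has 1 control siRNA, and no untransfected cells or second control were analysed here. Loss of ESRRA and an effect of siC itself on these genes therefore cannot be told apart, since every library with lowered ESRRA also lacks siC. The sequences of the 4 siRNAs were not used here.

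The values that bear on the siRNAs themselves are those of the target. ESRRA stood at 10.3 and 10.5 CPM (gene counts relative to the library total, scaled by TMM) with siE1, 8.86 and 7.25 CPM with siE2, 8.55 and 8.31 CPM with siE3, and 62.9 and 64.8 CPM with siC. The ESRRA siRNA libraries did not overlap with the siC libraries, and siE1 left the highest ESRRA level of the 3. VIM, which mesenchymal-like cells such as these express strongly, ran from 3170 to 4060 CPM over the 8 libraries, and ESR1, which the line lacks, had at most 1 count. KRT18 and ERBB2, also read to check the line, were both expressed, at 217 to 272 CPM and at 52 to 67.1 CPM. Libraries of the same siRNA gave chi-square values per degree of freedom between 3.11 and 5.12 over 12364 genes, and libraries of different siRNAs between 40.6 and 75.1.

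The 10 genes have little in common by annotated role. Membrane proteins of the endoplasmic reticulum, mitochondrion, Golgi apparatus and cell surface make up most of them, and the others are a guanine nucleotide exchange factor, 2 proteins of the kinase fold that act in signalling and RNA processing, and a mitochondrial nucleoside kinase. Because the rule used the contrasts with siC, the differences from siC below are a description with no test. All 10 had every ESRRA siRNA library above both siC libraries, which 15.1% of all tested genes also had. All 10 were called higher with each of the 3 siRNAs, as were 8.73% of tested genes. Higher calls by edgeR (adjusted p below 0.05) were made for 24.5% of all tested genes with siE1, 27.9% with siE2 and 21.3% with siE3. A log2 fold change above 1 with each siRNA was seen in 0.873% of tested genes (117 of 13395), and 9 of the 10 met it, TRIB2 being the exception.

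Over the 10 genes the log2 fold change against siC ran from 0.68 to 2.81 with siE1 (median 1.68, 3.21-fold), from 1.47 to 2.46 with siE2 (median 2.09, 4.25-fold) and from 1.44 to 2.41 with siE3 (median 1.92, 3.78-fold). The median of all tested genes was -0.01, 0.01 and -0.00 with the 3 siRNAs. In the average of the 3 siRNAs the 10 ran from 1.62 to 2.21. Ordered by that average among the 1054 genes (7.87% of those tested) called higher with each siRNA, with at least 5 CPM on average and no overlap with siC, the 10 occupy places in the top 12. TP53INP1 (1.93) and ACLY (1.64) lie between them and are not members. The border is narrow: TK2, the lowest member, was at 1.62 (1.6225), and the first genes below it were CCNG2 (1.6174), TGFBR1 (1.60) and SLC38A4 (1.59). Among all tested genes, without those limits, the same average ranked the 10 from 20 (TMEM64) to 75 (TK2).

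**Figure D1:**
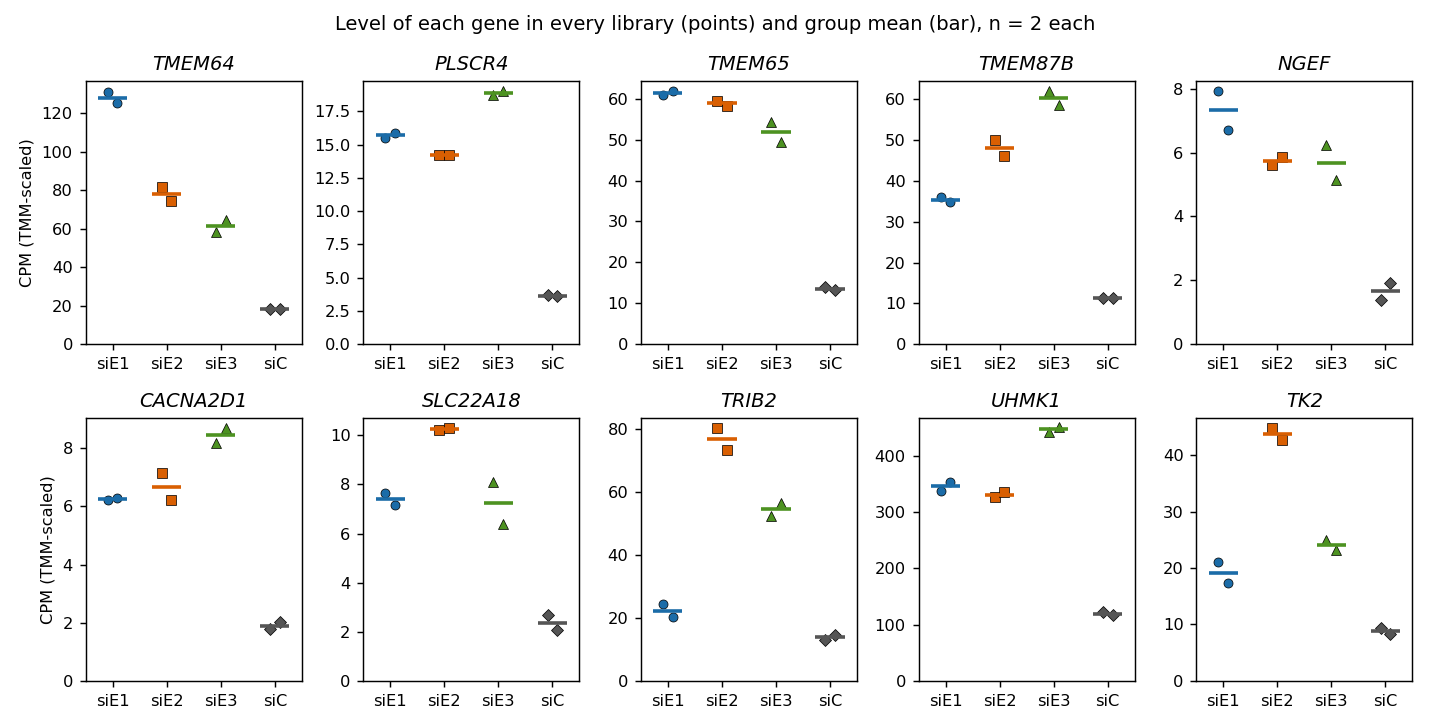
Level of each of the 10 genes in CPM scaled by TMM (vertical axis, starting at 0) in the libraries of siE1, siE2, siE3 and siC; points are single libraries, bars are group means, n = 2 each. In every panel the 6 ESRRA siRNA libraries lie above both siC libraries, by a wide gap except for TRIB2 with siE1, where the lowest ESRRA siRNA library is 1.39 times the highest siC library.

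Among the membrane proteins of the cell interior, TMEM64, an endoplasmic reticulum protein that in mouse osteoclasts binds the calcium pump SERCA2, stood highest above siC in the average, at 4.64-fold. It stood at 131 and 125 CPM with siE1, 81.8 and 74.2 with siE2, 58.0 and 64.4 with siE3, and 18.4 and 18.2 CPM with siC. The 3 siRNAs form steps that do not overlap, siE1 highest and siE3 lowest, with log2 fold changes against siC of 2.81 (SE 0.0728), 2.09 (SE 0.0744) and 1.74 (SE 0.0758).

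TMEM65 is a protein of the inner mitochondrial membrane linked to sodium-calcium exchange there. Its values were 61.0 and 61.9 CPM with siE1, 59.5 and 58.3 with siE2, 54.4 and 49.5 with siE3, and 14 and 13.2 CPM with siC. Levels under the 3 siRNAs were close together, at 4.53-fold, 4.34-fold and 3.82-fold of siC. TMEM87B, a Golgi membrane protein of endosome-to-Golgi transport, showed the opposite order to TMEM64. It had 36.1 and 34.7 CPM with siE1, 50.1 and 46.0 with siE2, 61.9 and 58.5 with siE3, and 11.2 and 11.4 CPM with siC, so that siE3 was highest and siE1 lowest of the 3.

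At the cell surface, PLSCR4, a member of the phospholipid scramblase family, had 15.5 and 15.9 CPM with siE1, 14.2 and 14.2 with siE2, 18.7 and 19.0 with siE3, and 3.70 and 3.60 CPM with siC. Its libraries agreed closely within each siRNA, with a coefficient of variation of at most 1.89%. CACNA2D1, the α2δ auxiliary subunit of voltage-gated calcium channels, was a low gene, at 6.23 and 6.29 CPM with siE1, 7.13 and 6.21 with siE2, 8.18 and 8.70 with siE3, and 1.78 and 2.01 CPM with siC. Its siE1 and siE2 libraries overlapped, and siE3 was above both.

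SLC22A18, a transporter-like membrane protein of an imprinted cluster, had 7.64 and 7.18 CPM with siE1, 10.2 and 10.3 with siE2, 8.09 and 6.40 with siE3, and 2.69 and 2.06 CPM with siC. The siE2 libraries stood above the rest, while siE1 and siE3 overlapped. It and NGEF rest on few siC counts, 59 and 48 for SLC22A18 and 30 and 45 for NGEF, and their siC libraries differed by a coefficient of variation of 18.9% and 24.0%. Leaving out either siC library moved their average log2 fold changes, to 1.99 (without replicate 1) and 1.60 (without replicate 2) for SLC22A18 and to 1.68 and 2.17 for NGEF.

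Of the signalling genes, NGEF (ephexin-1), a guanine nucleotide exchange factor that binds EphA receptors and is best known in neurons, had 7.91 and 6.72 CPM with siE1, 5.62 and 5.87 with siE2, 6.22 and 5.15 with siE3, and 1.37 and 1.93 CPM with siC. The highest level was under siE1, and siE2 and siE3 overlapped. TRIB2, a pseudokinase that brings the ubiquitin ligase COP1 to C/EBP factors, was the most uneven of the 10. It stood at 24.3 and 20.3 CPM with siE1, 80.2 and 73.4 with siE2, 52.5 and 56.4 with siE3, and 13.1 and 14.7 CPM with siC. Its log2 fold change of 0.68 (SE 0.10) with siE1 is the smallest of the 30 values (10 genes with 3 siRNAs) and ranked 1053 of the 13395 tested genes, against ranks of 35 with siE2 and 22 with siE3.

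UHMK1 (KIS), a kinase with an RNA-binding-like domain that phosphorylates the splicing factor SF1 and the cell cycle inhibitor encoded by CDKN1B, was by far the most abundant. It had 337 and 354 CPM with siE1, 326 and 336 with siE2, 443 and 451 with siE3, and 122 and 117 CPM with siC. The siE3 libraries stood above the others, at 3.74-fold of siC against 2.90-fold with siE1 and 2.77-fold with siE2. TK2, the thymidine kinase of the mitochondrion, had 21.0 and 17.4 CPM with siE1, 44.8 and 42.6 with siE2, 24.9 and 23.2 with siE3, and 9.45 and 8.23 CPM with siC. Here siE2 stood apart from the other siRNAs, at 4.95-fold of siC against 2.17-fold with siE1 and 2.72-fold with siE3.

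**Figure D2:**
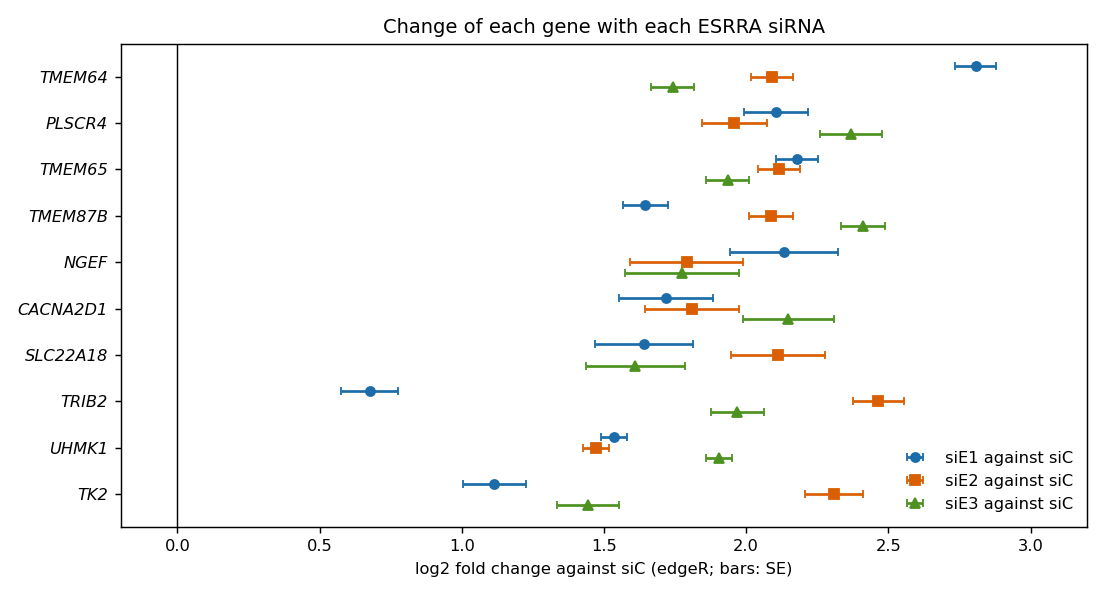
Log2 fold change of each gene against siC (horizontal axis; bars are SE from edgeR, n = 2 libraries in each group) for siE1, siE2 and siE3. All 30 points lie to the right of 0, from 0.68 (TRIB2 with siE1) to 2.81 (TMEM64 with siE1), and no siRNA is highest for all genes.

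Per kilobase of the principal GENCODE transcript, UHMK1 was also the highest of the 10, at 40.8, 39.0 and 52.7 CPM per kb with siE1, siE2 and siE3 and 14 CPM per kb with siC. CACNA2D1 was the lowest, at 0.828, 0.882 and 1.12 CPM per kb and 0.251 CPM per kb with siC. TMEM64 came second under siE1 (25.6 CPM per kb) and siC (3.66 CPM per kb), and TRIB2, at 17.5 and 12.4 CPM per kb, was second under siE2 and siE3.

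Whether these genes stood at the same level under the 3 ESRRA siRNAs was tested between the siRNAs, a contrast that the rule did not use, with edgeR's quasi-likelihood test and p adjusted over all 13395 genes. Of the 30 comparisons (10 genes, 3 pairs of siRNAs), 22 were called, and 9 of the 10 genes differed in at least 1 pair, as did 75.2% of all tested genes. Between siE1 and siE2, 1 gene was higher and 4 were lower with siE1, where 57.1% of all tested genes were called (28.5% higher and 28.6% lower). Between siE1 and siE3, 2 were higher and 6 lower with siE1 (48.7% of all genes called, 23.3% higher and 25.4% lower), and between siE2 and siE3, 5 were higher and 4 lower with siE2 (48.5% of all genes called, 23.4% higher and 25% lower). The median absolute log2 difference of the 10 was 0.392, 0.365 and 0.379 in the 3 pairs, beside 0.284, 0.232 and 0.234 over all tested genes.

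The widest gap was that of TRIB2, lower with siE1 than with siE2 by a log2 difference of -1.79 (SE 0.0835, edgeR adjusted p = 1.7e-10) and than with siE3 by -1.29 (SE 0.0854, edgeR adjusted p = 1.2e-08). In size, the siE1 to siE2 difference exceeded that of 99% of tested genes. TK2 was also lower with siE1 than with siE2, by -1.19 (SE 0.0901, edgeR adjusted p = 2.8e-08), and higher with siE2 than with siE3 by 0.86 (SE 0.0882, edgeR adjusted p = 1.2e-06). TMEM64 went the other way, higher with siE1 than with siE3 by 1.07 (SE 0.0632, edgeR adjusted p = 3.6e-09) and than with siE2 by 0.72 (SE 0.0619, edgeR adjusted p = 1.2e-07). TMEM87B was lower with siE1 than with siE3 by -0.77 (SE 0.0654, edgeR adjusted p = 1.8e-07).

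Smaller differences were called for UHMK1, lower with siE1 and siE2 than with siE3 by -0.37 and -0.43 (SE 0.0428 each, edgeR adjusted p = 4.5e-06 and 8.9e-07), for PLSCR4, lower with siE2 than with siE3 by -0.41 (SE 0.0880, edgeR adjusted p = 0.0013), and for SLC22A18, higher with siE2 than with siE3 by 0.50 (SE 0.136, edgeR adjusted p = 0.0065). Between siE1 and siE2 no difference was called for TMEM65 (0.06, 95% interval -0.0685 to 0.193), UHMK1 (0.06, -0.0297 to 0.153), PLSCR4 (0.15, -0.0436 to 0.337) and CACNA2D1 (-0.09, -0.371 to 0.189). For NGEF no pair was called, and its intervals are wide, from 0.0202 to 0.665 for siE1 against siE2, from 0.0360 to 0.685 for siE1 against siE3 and from -0.319 to 0.356 for siE2 against siE3. NGEF passed between siE1 and siE2 with no low-count filter (edgeR adjusted p = 0.043), with only the groups compared (0.047) or without siE1 replicate 2 (0.050), and between siE1 and siE3 with no such filter (0.044) or without siE3 replicate 1 (0.045).

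Several of the small differences hung on single libraries. Without siE3 replicate 2 the siE2 against siE3 differences of SLC22A18 (edgeR adjusted p = 0.094), TMEM65 (0.22) and CACNA2D1 (0.16) were lost, and so were the siE1 against siE3 differences of TMEM65 (0.059), PLSCR4 (0.078) and CACNA2D1 (0.066), which left 5 of the 10 genes called between siE1 and siE3 and 6 between siE2 and siE3. Without siE1 replicate 2 the siE1 against siE3 calls of TK2 (0.16), PLSCR4 (0.065) and CACNA2D1 (0.052) and the siE1 against siE2 call of SLC22A18 (0.055) were lost, and 5 genes were called between siE1 and siE3. The siE1 against siE3 calls were also lost for PLSCR4 and CACNA2D1 without siE1 replicate 1 (edgeR adjusted p = 0.094 and 0.050) and for TK2 without siE3 replicate 1 (0.066). Between siE2 and siE3, TMEM65 was lost without siE2 replicate 1 or 2 (0.13 and 0.064) and CACNA2D1 without siE2 replicate 2 (0.23) or siE3 replicate 1 (0.059). The differences of TRIB2, TK2, TMEM64 and TMEM87B given with their p above, and those of UHMK1, were called without any single library.

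**Figure D3:**
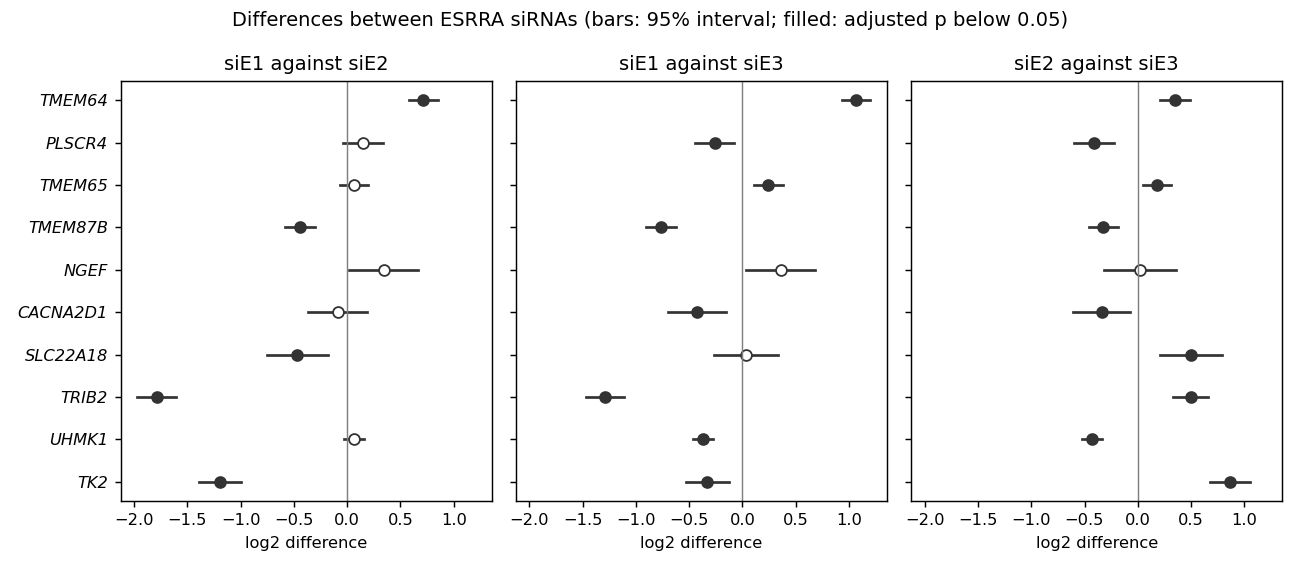
Log2 difference between pairs of ESRRA siRNAs for each gene (horizontal axis; bars are 95% intervals, n = 2 libraries in each group; filled points have an edgeR adjusted p below 0.05). TRIB2 (-1.79) and TK2 (-1.19) lie far left for siE1 against siE2, TMEM64 lies right in every panel, and NGEF is open in every panel.

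Set beside the target, the order of the siRNAs differs between the genes. The ESRRA mean was highest with siE1 (10.4 CPM), then siE3 (8.43 CPM) and siE2 (8.06 CPM), of which the last pair did not differ by the test (edgeR adjusted p = 0.67). The means of TRIB2 and TK2 followed the reverse of that order, siE2 above siE3 above siE1, while TMEM64, TMEM65 and NGEF were highest with siE1, TMEM87B, CACNA2D1, PLSCR4 and UHMK1 were highest with siE3, and SLC22A18 with siE2. With 3 siRNAs this is a description of the order only.

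By the rule set for genes of like pattern, the 5 other genes whose 3 log2 fold changes lay nearest to the mean of the 10 (1.76, 2.02 and 1.93 with siE1, siE2 and siE3, Euclidean distance over the 3 contrasts, which share the siC libraries) were RARRES3 (distance 0.150), C1orf116 (0.306), XDH (0.380), C11orf86 (0.387) and RBM47 (0.416). They are close to the limit of detection. RARRES3 had 8 and 12 counts with siE1, 10 and 13 with siE2, 8 and 11 with siE3 and 2 and 3 with siC, and RBM47, the highest of the 5, had 19 to 38 counts in the ESRRA siRNA libraries and 7 in each siC library. Among genes of at least 5 CPM on average, a limit added after seeing this, the nearest were ACLY (0.508), CCNG2 (0.731), GPR124 (0.739), ITGB4 (0.788) and GPR17 (0.799). The distances of the members themselves ran from 0.306 (CACNA2D1) to 1.17 (TRIB2).

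Relatives and partners of the 10 genes, which the rule did not select, were listed with earlier results of these data known. They were taken in 11 lists of 108 entries. Of the 87 that were tested, 26 (29.9%) rose and 29 (33.3%) fell in the average of the 3 siRNAs (edgeR adjusted p below 0.05), against 23.4% higher and 27.7% lower of all tested genes. Their median log2 fold change was 0.01, against -0.01 for all genes, and the range was -0.85 to 1.3. The lowest of the 10 was at 1.62, but the 10 were picked for their rise against siC, so that gap follows from the rule. The average joins siRNAs that often differed: of the 26 that rose, 10 were called higher with each siRNA, and of the 29 that fell, 7 were called lower with each. Another 5 were called in opposite directions by different siRNAs (1 of the 26 and 4 of the 29), and so were 5 of the 32 not called in the average, of which 20 were called with at least 1 siRNA. Over all tested genes, 1170 were called higher with each siRNA and 3138 higher in the average, so unevenness among the rises was not particular to the lists. No such counts over all genes were taken for genes lower with each siRNA or called in opposite directions.

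Of the close paralogs, PLSCR1, which lies next to PLSCR4, averaged 0.07 over the siRNAs (SE 0.0516, edgeR adjusted p = 0.26) and was not called with any of the 3 siRNAs. TMEM87A averaged 0.11 over the siRNAs (SE 0.0726, edgeR adjusted p = 0.20) but was called with each siRNA, at 0.24 with siE1, -0.38 with siE2 and 0.48 with siE3 (edgeR adjusted p = 0.033, 0.0024 and 0.00038). TRIB3, with an average of 0.12 (SE 0.0629, edgeR adjusted p = 0.11), was called higher with siE1 (0.27) and siE3 (0.24), with -0.14 under siE2. TRIB1 averaged 0.17 over the siRNAs (SE 0.0686, edgeR adjusted p = 0.055) and was called higher with siE1 (0.30, edgeR adjusted p = 0.0066). In the average it passed with library size alone (0.034), with the stricter filter (0.038) and without siE3 replicate 1 (0.030). Of the 4 tested scramblase relatives, XKR8 rose by 0.59 (SE 0.0983, edgeR adjusted p = 1.4e-04). ANO6, a calcium-activated scramblase, averaged -0.12 over the siRNAs (SE 0.0356, edgeR adjusted p = 0.011), a call lost without siC replicate 1 (0.10). It was called lower with siE1 (-0.31) and siE3 (-0.20) and higher with siE2 (0.15, edgeR adjusted p = 0.0068). The list median was 0.20. CACNA2D4 rose by 0.56 (SE 0.0677, edgeR adjusted p = 6.2e-06), with 46.8, 70.5 and 63.8 CPM under siE1, siE2 and siE3 against 40.3 CPM under siC.

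Of the other 17 calcium channel subunits listed, 12 did not pass the filter, among them every pore-forming α1 subunit, none of which had more than 31 counts over all 8 libraries. Of the 5 tested, 4 rose and 0 fell (median 0.49). The β subunits CACNB3 and CACNB4 rose by 0.70 (SE 0.138, edgeR adjusted p = 6.1e-04) and 0.49 (SE 0.106, edgeR adjusted p = 0.0013). CACNB4 was uneven, at 1.08, -0.09 and 0.47 with siE1, siE2 and siE3. CACNB1 was at 0.73, -0.01 and 0.03, and its rise in the average (0.25, SE 0.0919, edgeR adjusted p = 0.032) was lost without any one of 6 libraries, siC replicate 1 among them (0.13), and with DESeq2 (0.13). In the wider scheme of calcium handling by mitochondria, to which TMEM65 belongs, 2 of 12 genes rose and 8 fell in the average (median -0.18). The siRNAs differed: 3 of the 12 were called lower with siE1 (median 0.02), 9 with siE2 (median -0.35) and 6 with siE3 (median -0.17). For comparison, of all 13395 tested genes 6744, 7560 and 5643 were called in either direction with siE1, siE2 and siE3. Of those, 3287, 3736 and 2858 were higher and the rest lower. The 8 included the outer membrane channel VDAC2 (-0.55, SE 0.0581, edgeR adjusted p = 1.6e-06), the uniporter pore MCU (-0.38, SE 0.0520, edgeR adjusted p = 1.9e-05), LETM1 (-0.31, SE 0.0396, edgeR adjusted p = 1.0e-05) and the sodium-calcium exchanger SLC24A6 (now SLC8B1; -0.21, SE 0.0495, edgeR adjusted p = 0.0021). The rises were those of C22orf32 (now SMDT1; 0.22, SE 0.0650, edgeR adjusted p = 0.011) and CCDC109B (now MCUB; 0.16, SE 0.0537, edgeR adjusted p = 0.023), and both were lost without siC replicate 1 (0.18 and 0.14), the second also without siC replicate 2 (0.096). MCU was at -0.02, -0.93 and -0.20 with siE1, siE2 and siE3, LETM1 at 0.02, -0.54 and -0.41, and SLC24A6 at 0.07, -0.39 and -0.32, none of them called with siE1, while VDAC2 was called lower with each siRNA.

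Around TMEM64, 2 of 6 genes rose and 2 fell. The calcium pump ATP2A3 (SERCA3) rose by 0.91 (SE 0.132, edgeR adjusted p = 3.7e-05). TMEM41B, of the same VTT domain family, rose by 0.28 (SE 0.0592, edgeR adjusted p = 0.0011), and TMEM41A averaged -0.39 over the siRNAs (SE 0.0552, edgeR adjusted p = 2.7e-05), called lower with siE1 (-0.44) and siE2 (-1.02) and higher with siE3 (0.28). ATP2A2 (SERCA2) was called higher with siE1 (0.19, edgeR adjusted p = 0.0019) and lower with siE2 (-0.47, edgeR adjusted p = 3.3e-07), and was at -0.03 with siE3. Its average was -0.10 (SE 0.0358, edgeR adjusted p = 0.026), a call lost without siC replicate 1 (0.23), siE1 replicate 1 (0.056) or siE2 replicate 2 (0.055). Among the TMEM87B relatives, 2 of 6 rose and 2 fell, with GPR107 at 0.21 (SE 0.0373, edgeR adjusted p = 2.4e-04) and WLS, which carries Wnt proteins to the surface, at -0.21 (SE 0.0405, edgeR adjusted p = 4.8e-04). GPR107 was not called with siE1 (0.01), nor WLS with siE2 (-0.01). TMEM145, a low gene, fell by 0.85 (SE 0.199, edgeR adjusted p = 0.0022).

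In the signalling lists, AKT1 rose by 0.64 (SE 0.0365, edgeR adjusted p = 2.8e-09), to 299, 363 and 316 CPM under siE1, siE2 and siE3 against 209 CPM under siC, and CEBPB by 0.53 (SE 0.0574, edgeR adjusted p = 1.8e-06). CEBPA, the other C/EBP factor listed, averaged -0.28 over the siRNAs (SE 0.119, edgeR adjusted p = 0.060). It was called lower with siE2 (-0.75, edgeR adjusted p = 7.1e-04) and not with siE1 (0.0035) or siE3 (-0.10). RFWD2, the ubiquitin ligase COP1 that TRIB2 recruits, fell by 0.36 (SE 0.0554, edgeR adjusted p = 5.7e-05), with -0.09 under siE1, which was not called. In all, 2 of 8 TRIB2 relatives and partners rose and 2 fell, the other fall being that of FOXO1 (-0.31, SE 0.0871, edgeR adjusted p = 0.0071), lost without siC replicate 1 (0.19). Of the 9 tested NGEF relatives and partners, 2 rose and 3 fell. The falls were those of RAC1 (-0.16, SE 0.0359, edgeR adjusted p = 0.0014), called lower with each siRNA, CDC42 (-0.22, SE 0.0360, edgeR adjusted p = 9.6e-05), not called with siE1 (0.04), and ARHGEF26 (-0.18, SE 0.0568, edgeR adjusted p = 0.015), called with siE2 alone. The rises were those of ARHGEF5 (1.3, SE 0.404, edgeR adjusted p = 0.014) and ARHGEF16 (0.65, SE 0.245, edgeR adjusted p = 0.037), both low genes, of at most 1.21 and 2.94 CPM on average in any group. Taken singly, siE3 alone gave a call for ARHGEF5 and siE2 alone for ARHGEF16. ARHGEF5 was lost without siC replicate 1 (1.03, edgeR adjusted p = 0.13), and ARHGEF16 without any one of 5 libraries, with 0.24 (edgeR adjusted p = 0.53) without siC replicate 2. Of 7 UHMK1 partners 0 rose and 1 fell in the average, U2AF1 (-0.35, SE 0.0411, edgeR adjusted p = 4.3e-06), with -0.15, -0.82 and -0.09 under siE1, siE2 and siE3. CDKN1B was called lower with siE1 (-0.23, edgeR adjusted p = 0.0067) and higher with siE2 (0.45, edgeR adjusted p = 1.3e-05), and its average was 0.08 (SE 0.0504, edgeR adjusted p = 0.19). SF1 was called lower with siE3 (-0.22, edgeR adjusted p = 0.0053), with an average of -0.07 (SE 0.0451, edgeR adjusted p = 0.23). Of 6 tested members of the SLC22 transporter family 3 rose and 0 fell in the average, where 0 were called with siE1, 3 with siE2 and 1 with siE3: SLC22A4 (0.43, SE 0.115, edgeR adjusted p = 0.0053), SLC22A15 (0.41, SE 0.0980, edgeR adjusted p = 0.0026) and SLC22A5 (0.38, SE 0.126, edgeR adjusted p = 0.019). Each call was lost without 1 siC library, the first without replicate 1 (0.091) and the others without replicate 2 (0.065 and 0.26).

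TK2 works in the salvage of deoxynucleosides for mitochondrial DNA. In that list 6 of 20 genes rose and 9 fell (median -0.04). SAMHD1, which breaks down deoxynucleotides, rose by 0.96 (SE 0.0501, edgeR adjusted p = 1.0e-09), with 136, 90.4 and 108 CPM under siE1, siE2 and siE3 against 56.3 CPM under siC. The partner kinase DGUOK rose by 0.24 (SE 0.0387, edgeR adjusted p = 8.6e-05), the ribonucleotide reductase subunit RRM2B by 0.29 (SE 0.0465, edgeR adjusted p = 1.0e-04) and the nucleotide carrier SLC25A36 by 0.42 (SE 0.0452, edgeR adjusted p = 1.7e-06). These 3 were called higher with siE1 and siE3 and not with siE2, where DGUOK was at 0.11, RRM2B at -0.07 and SLC25A36 at -0.01. RRM1 (-0.34, SE 0.0419), RRM2 (-0.39, SE 0.0484) and TYMS (-0.30, SE 0.0377) fell, each with an edgeR adjusted p of at most 9.0e-06, and RRM1 and RRM2 were not called with siE3 (-0.13 each). So did the mitochondrial DNA packaging factor TFAM (-0.27, SE 0.0374, edgeR adjusted p = 2.3e-05), the helicase C10orf2 (now TWNK; -0.34, SE 0.0534, edgeR adjusted p = 8.9e-05) and the carrier SLC25A33 (-0.57, SE 0.108, edgeR adjusted p = 4.0e-04), the last not called with siE1 (-0.21). The other thymidine kinase, TK1, was not called in the average (-0.04, SE 0.0383, edgeR adjusted p = 0.40). Neither were DTYMK (-0.02, SE 0.0380, edgeR adjusted p = 0.63) and DCK (-0.01, SE 0.0425, edgeR adjusted p = 0.93).

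**Figure D4:**
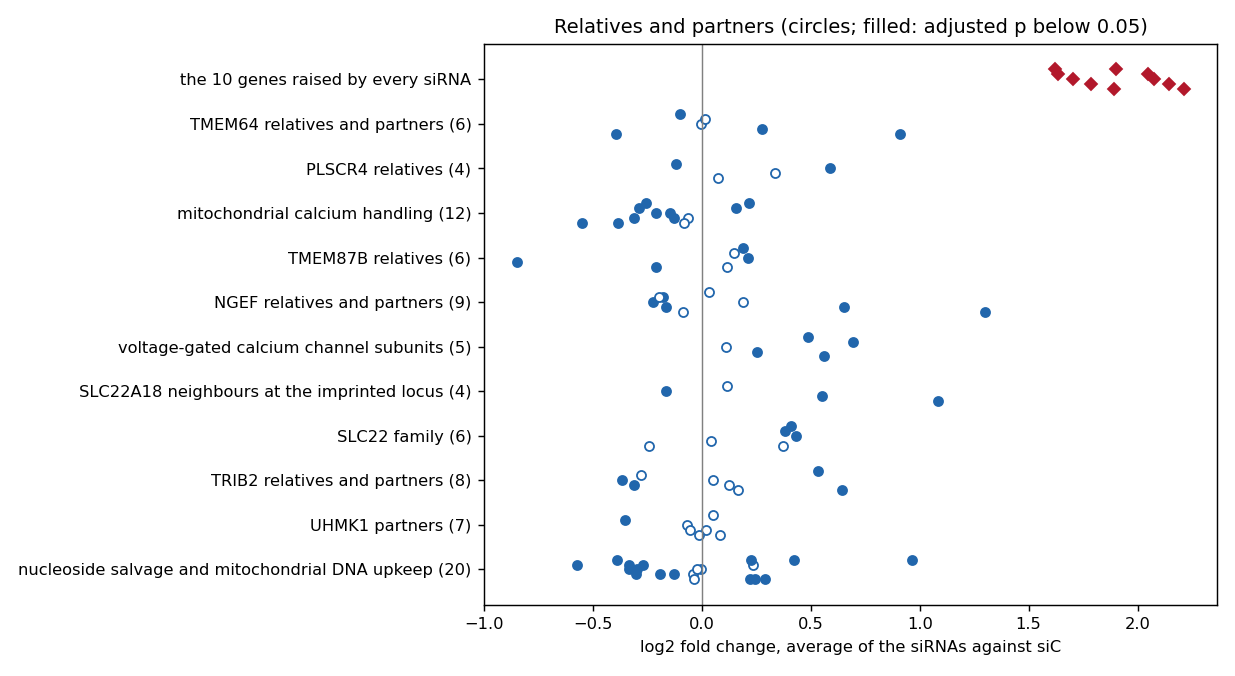
Log2 fold change in the average of the 3 ESRRA siRNAs against siC (horizontal axis) of the 10 genes (diamonds) and of tested genes in the 11 lists of relatives and partners (circles; number tested in brackets; filled circles have an edgeR adjusted p below 0.05). The diamonds start at 1.62, and the circles reach 1.3 at most, a gap that follows from how the 10 were picked.

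Along the chromosomes, the nearest tested genes on either side of the 10 were 20 genes, of which 8 rose and 4 fell (median 0.06, against 23.4% higher and 27.7% lower of all tested genes). At SLC22A18 both flanking genes rose. CDKN1C, an imprinted cell cycle inhibitor, had 6.82 and 7.95 CPM with siE1, 15.6 and 15.6 with siE2, 10.2 and 9.86 with siE3 and 5.34 and 4.58 CPM with siC, a log2 fold change of 1.08 in the average (SE 0.109, edgeR adjusted p = 9.8e-07). PHLDA2, also imprinted, rose by 0.55 (SE 0.0470, edgeR adjusted p = 1.6e-07). SLC22A18AS, on the opposite strand, had 43 counts over the 8 libraries and was not tested. NAP1L4, further along the same locus, was called higher with siE1 (0.17, edgeR adjusted p = 0.015) and lower with siE2 (-0.38) and siE3 (-0.28). Its average was -0.16 (SE 0.0440, edgeR adjusted p = 0.0056), a call lost without siC replicate 1 (0.14). Whether strand was used in the counting is unknown here, and so is how reads of overlapping genes were counted. Other flanking genes that rose included TMEM55A beside TMEM64 (0.87, SE 0.0583, edgeR adjusted p = 1.4e-08), PLOD2 beside PLSCR4 (0.60, SE 0.0369, edgeR adjusted p = 5.9e-09), SEMA3C beside CACNA2D1 (0.63, SE 0.0591, edgeR adjusted p = 4.4e-07), ATG16L1 beside NGEF (0.62, SE 0.0525, edgeR adjusted p = 1.5e-07) and SH2D1B beside UHMK1 (1.35, SE 0.364, edgeR adjusted p = 0.0057), the last lost without siC replicate 2 (0.057) and not called with siE3 (0.52). Of the 8 flanking genes that rose, 6 were called higher with each siRNA, and of the 4 that fell, 2 were called lower with each. Over all tested genes 1170 were called higher with each siRNA and 3138 higher in the average. The count lower with each was not taken over all genes, and the split of the flanking genes was not tested. GIGYF2 on the other side of NGEF fell by 0.32 (SE 0.0536, edgeR adjusted p = 1.5e-04), and TRMT12 beside TMEM65 fell by 0.43 (SE 0.0920, edgeR adjusted p = 0.0012).

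The 3' UTRs of the 10 genes were searched for TACATTT and ACATTTA, 2 overlapping words of 7 bases that an earlier search of these same fold changes had picked out among shared higher genes. The words were thus chosen on the data that chose the members, and their presence is a description with no test. Of the 10 principal transcripts in GENCODE 29, 8 (80.0%) held at least 1 of the words, against 31.6% of 12335 tested genes with a 3' UTR and 49.9% of the 1128 other genes called higher with each siRNA. Both words overlap to TACATTTA, which 6 of the 10 (60.0%) held, against 7.47% of tested genes and 18.2% of the other higher genes. For TACATTTA no share was taken among genes with a 3' UTR of like length. The 3' UTRs of the 10 were also longer, with a median of 3425.5 bases against 1136 bases in all tested genes, and longer ones hold any word more often. Among tested genes with a 3' UTR of like length (0.8 to 1.25 times), a word was found in 86.0% for TMEM65, 81.8% for UHMK1, 65.4% for TK2, 64.9% for CACNA2D1, 63.1% for TMEM64, 57.7% for TMEM87B, 43.5% for PLSCR4, 40.2% for TRIB2, 7.59% for NGEF and 0.752% for SLC22A18.

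These sites, 27 in all, were unevenly spread. CACNA2D1, TMEM87B and UHMK1 held 5 each, TMEM65 held 4, TMEM64 and PLSCR4 held 3 each, and TRIB2 and TK2 held 1 each. In NGEF and SLC22A18, whose 3' UTRs in the principal transcripts are only 274 and 49 bases long, there was none. The longest annotated 3' UTR of NGEF, of 803 bases, also held none. The part of these words in the differences from siC was not tested.

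**Figure D5:**
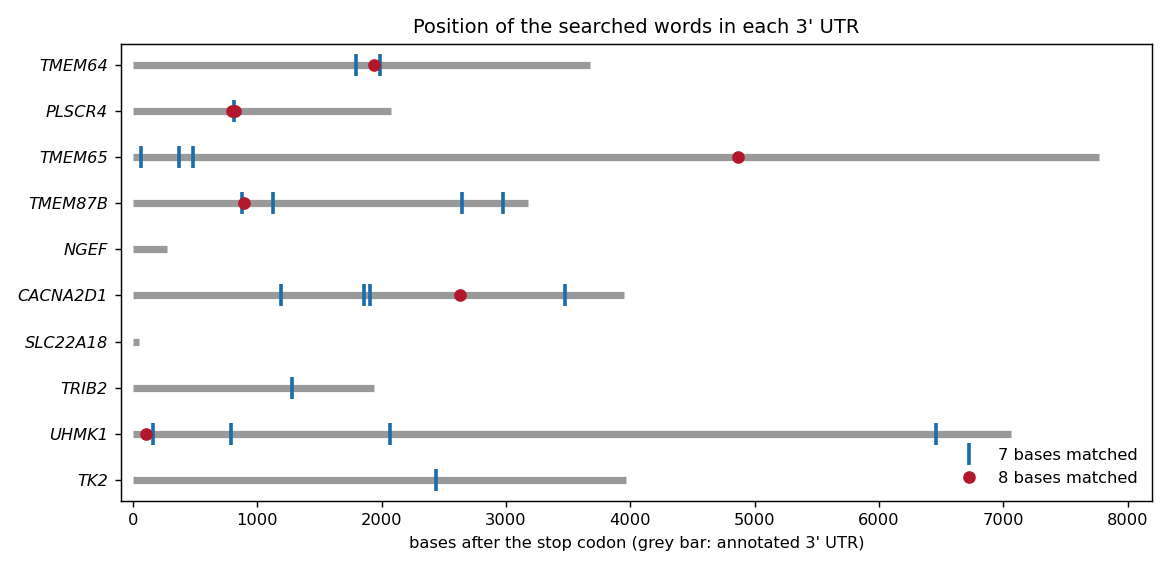
Position of the 27 sites in the annotated 3' UTR of each gene (grey bars; horizontal axis in bases after the stop codon); ticks are sites that match 1 word over 7 bases, circles are sites that match TACATTTA over 8 bases. PLSCR4 has its 3 sites within a short stretch from base 794 to base 817, TMEM65 and UHMK1 have sites close to the stop codon as well as far from it, and NGEF and SLC22A18 have none.

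The sites that match over 8 bases are shown for PLSCR4, TMEM87B, CACNA2D1 and UHMK1, with the single sites of TRIB2 and TK2 for comparison. All are on the mRNA strand in a 3' UTR, from GENCODE 29 transcripts on GRCh38, whereas the authors used hg19. Capitals mark the searched word and lower case the 8 bases on either side.
PLSCR4, site starting 794 bases after the stop codon, chr3:146193602-146193625, minus strand: gcatttaaTACATTTAtacataat
PLSCR4, site starting at base 817, chr3:146193579-146193602, minus strand: tacatttgTACATTTAattcataa
TMEM87B, site starting at base 893, chr2:112117028-112117051, plus strand: taaaaacaTACATTTAgttgcatg
CACNA2D1, site starting at base 2630, chr7:81947747-81947770, minus strand: tattacatTACATTTAgtattttt
UHMK1, site starting at base 104, chr1:162522646-162522669, plus strand: gtactttaTACATTTAtttaatcc
TRIB2, site starting at base 1276, chr2:12742062-12742084, plus strand: tgtagttaACATTTAtaattctt
TK2, site starting at base 2436, chr16:66509518-66509540, minus strand: tgcacataTACATTTtctttcaa

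In PLSCR4 a further site of 7 bases starts at base 809, between those shown, and in TMEM87B a site of 7 bases starts 20 bases before the one shown. The stretches are rich in A and T. Over the whole 3' UTR, A and T made up 36.1% (NGEF) to 69.0% (CACNA2D1) of bases in the 10 genes, with a median of 64.6% against 57.9% in all tested genes. Which 3' UTR form the cells used cannot be read from counts per gene.

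Promoters were searched for TNAAGGTCA, the sequence that ERR receptors are known to bind, on both strands. The RefSeq windows (GRCh38.p14, 250 bases before to 50 after the start) were found for 8 of the 10 genes, SLC22A18 under its present symbol. The motif was in 0 of the 8 and in 0.516% of the 10469 tested genes with a window, and its core AAGGTCA, which lies within it, was in 0 of the 8 and in 2.45% of tested genes. These letters were searched in this window only.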

How the data were processed

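RNA-seq of MDA-MB-231 cells transfected, per the labels' protocols, with INTERFERin was analysed. Per the submitters' processing notes, the build was hg19 and the tools included HTSeq, DESeq and TopHat 1.3.3. The authors' deposited table holds raw counts per gene symbol, per the file headers. The annotation, the strand setting and any filters: not given in the sources used here. Groups came from titles.

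Of 23368 symbols, 13395 passed filterByExpr of edgeR 4.0.16 (R 4.3.3). With TMM scaling, glmQLFit and glmQLFTest were fitted once over the 8 libraries (4 residual degrees of freedom), with Benjamini-Hochberg adjustment over all tested genes and a threshold of 0.05. SE is the log2 fold change over the root of F. The fit was tested on simulated data.

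The members, lists and words were chosen with earlier results of these data known. Named were the 10 genes, ESRRA, neighbours in rank and in chromosome order, 5 genes of like pattern, and genes of the lists; 1 result on list genes is not reported here. GENCODE 29 gave 3' UTRs for 12335 genes (92.1%) from the principal transcript, the longest among several. RefSeq gave promoters and gene order. Older symbols were matched. Alternatives used DESeq2 1.42.0 and limma 3.58.1 (voom). Python was 3.11.15.

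Deviations of same-numbered libraries correlated positively in 2 of 6 pairs of groups, siC with siE3 (0.223) and siE1 with siE2 (0.300). In the other pairs they correlated negatively, from -0.309 to -0.271. Groups therefore shared deviations, but not by replicate number, so the numbers were not taken as pairs. The main fit did not model shared deviations, and a block by replicate number assumes the same direction in every group.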

Additional observations from a re-analysis of the deposited data

Results flagged for a closer look

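For 9 of the 10 genes the change against siC differed between ESRRA siRNAs by the edgeR test of that difference, adjusted over all tested genes. The widest called log2 difference of each was -1.79 for TRIB2 and -1.19 for TK2 (siE1 against siE2), 1.07 for TMEM64, -0.77 for TMEM87B, -0.43 for CACNA2D1 and 0.24 for TMEM65 (siE1 against siE3), and 0.50 for SLC22A18, -0.43 for UHMK1 and -0.41 for PLSCR4 (siE2 against siE3). Of all tested genes, 75.2% were called in at least 1 of the 3 pairs of siRNAs.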

How the results depend on the processing

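Over the alternatives other than the fold limit, average log2 fold changes of the 10 genes against siC stayed between 1.52 and 2.24. Of 480 values for the differences between siRNAs, 446 kept their direction and side of the threshold, 24 lost and 5 gained a call, and 5 changed sign, all in differences that were not called. Those were NGEF for siE2 against siE3 (0.02, -0.12 to 0.16 with a library left out), CACNA2D1 for siE1 against siE2 (-0.09, -0.19 to 0.020) and SLC22A18 for siE1 against siE3 (0.03, -0.13 to 0.21). SF1, also not called, ranged from -0.14 to 0.00011 with a library left out. The cause was not tested. Requiring at least 1.5-fold left 3, 3 and 1 of the 10 genes called for siE1 against siE2, siE1 against siE3 and siE2 against siE3, against 5, 8 and 9, and left 8 higher and 1 lower list genes, against 26 and 29. Over all genes it left 1974, 2408 and 1335 for siE1, siE2 and siE3 against siC, 1277 for the average, and 2556, 1827 and 1691 for the pairs of siRNAs in the order above. With a library left out, 5 to 8 of the 10 genes differed between siE1 and siE3. With the DESeq2 Wald test 5, 6 and 7 of the 10 differed in the 3 pairs. Over 883 values for other named genes, 851 were kept, 28 lost and 3 gained a call, and 1 changed sign. With a library left out, list genes called higher numbered 19 to 26 and lower 22 to 29.

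With the replicate number as a block, 5, 8 and 8 of the 10 genes differed in the 3 pairs of siRNAs, and 6334, 7225, 5221 and 6432 genes were called for siE1, siE2, siE3 and the average against siC. The call of CACNA2D1 for siE2 against siE3 was lost (edgeR adjusted p = 0.056). Correlations of same-numbered libraries' deviations from the group means ran from -0.309 to 0.300. NGEF, CACNA2D1 and SLC22A18 are the members with the lowest siC counts, 30 to 59 in a library.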
